A study of Homo sapiens with 4 samples.

Results

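The 38 genes of the integrin and laminin chains were followed in osteoblasts undergoing mineralization. The genes were taken by name, and the group was chosen with earlier results of these data known. It holds each gene of the deposited mRNA table named as an integrin alpha chain (18 genes), integrin beta chain (8) or laminin chain (12). The table has 19610 gene symbols in all. Each gene of the group has a single gene ID in the table, and together they have 168 transcripts. The cells were hFOB1.19, a human fetal osteoblast line immortalised with a temperature-sensitive viral oncogene, which grows at a permissive temperature and differentiates at a higher one. RNA was taken before the shift (day 0, the control) and after 3, 6 and 9 days of mineralization at the higher temperature, from 1 library per day. The methods name no added agent or gene change for the sequenced cells. Time in culture and temperature cannot be told apart between day 0 and the later days, while days 3, 6 and 9 share a temperature. With 1 library per day there is no replicate error, so no test was made, and each difference below is one between single libraries.

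Integrins are cell surface receptors made of an alpha and a beta chain. They hold the cell to its matrix and signal from it. Laminins are secreted trimers of an alpha, a beta and a gamma chain, and with type IV collagen, nidogen and perlecan they form the basement membrane. Osteoblasts lie on a matrix of type I collagen and fibronectin, which they bind mainly through integrins that contain the beta chain ITGB1.

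The values are FPKM (fragments per kilobase of transcript, scaled to the fragments of the library), summed over the transcripts of a gene, so that levels can be compared between genes. Where 4 values are listed for a gene, they are its FPKM in the libraries of days 0, 3, 6 and 9. The FPKM of a library summed to between 538072 and 617857, with the highest sum on day 0, and between 11956 and 12421 genes had at least 1 FPKM. A log2 ratio was taken after 1 was added to both values, which understates the ratio of genes with few fragments. A gene was counted as higher or lower when this ratio was at least 1 or at most -1, that is 2-fold, and when the gene had at least 1 FPKM in any library. Of the 38 genes, 27 reached this minimum, 17 integrin and 10 laminin chains, and 5 of the 27, ITGA2B, ITGAX, ITGB2 and LAMA2 among them, reached it only after day 0. The number of reads behind a gene is not known from FPKM, so no counting interval can be given. The labelled cell type was checked against 11 osteoblast markers, of which 8 reached 1 FPKM. COL1A1 had between 777 and 1974 FPKM and RUNX2 between 7.37 and 26.2, and ALPL had 0.294 on day 0 and at least 4.18 later. SPP1 had 0.794 FPKM on day 0 and 7.45 on day 9, while SP7, BGLAP and IBSP stayed under 1 FPKM in every library. COL1A2 had 125 FPKM on day 0 and between 561 and 856 later. SPARC had between 1113 and 1469 FPKM, ATF4 between 162 and 209 and DLX5 between 1.34 and 2.63. These last genes reached 2-fold on no day, with log2 ratios of 0.20, 0.04 and -0.22 on day 9.

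The genes with the largest log2 ratios of day 9 to day 0 were LAMB3, ITGA2 and LAMA1. LAMB3 was 9.72-fold higher in FPKM on day 9 than on day 0, ITGA2 13.3-fold and LAMA1 9.11-fold. For LAMB3 and ITGA2 the RefSeq tables hold the promoter. Their sequences are shown with that of LAMB1, a chain of the same kind as LAMB3 that was not 2-fold higher. Each line gives the 250 bases before a transcription start, 5′ to 3′ on the strand of the gene, in the build GRCh38.p14. Capitals mark matches, on either strand, to the GC box GGGCGG, the AP-1 motif TGANTCA, the TATA box TATAAA and the RUNX core TGTGGT.

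LAMB3, upstream start (chr1:209652426-209652675, minus strand): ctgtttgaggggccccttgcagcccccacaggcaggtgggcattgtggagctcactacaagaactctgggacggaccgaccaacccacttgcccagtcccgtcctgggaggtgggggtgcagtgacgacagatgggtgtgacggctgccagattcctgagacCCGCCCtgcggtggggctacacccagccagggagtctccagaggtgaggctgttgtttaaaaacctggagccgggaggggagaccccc
LAMB3, downstream start (chr1:209651375-209651624, minus strand): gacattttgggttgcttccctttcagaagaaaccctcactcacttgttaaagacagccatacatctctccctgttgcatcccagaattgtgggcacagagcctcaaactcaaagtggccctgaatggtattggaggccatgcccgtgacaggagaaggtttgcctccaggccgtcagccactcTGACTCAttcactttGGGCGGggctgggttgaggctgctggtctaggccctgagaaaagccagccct
ITGA2 (chr5:52989102-52989351, plus strand): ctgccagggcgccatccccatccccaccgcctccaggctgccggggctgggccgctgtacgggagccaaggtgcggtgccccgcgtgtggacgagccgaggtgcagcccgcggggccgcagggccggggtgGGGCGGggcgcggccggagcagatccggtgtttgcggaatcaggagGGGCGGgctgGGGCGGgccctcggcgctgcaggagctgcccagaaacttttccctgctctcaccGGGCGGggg
LAMB1 (chr7:108003162-108003411, minus strand): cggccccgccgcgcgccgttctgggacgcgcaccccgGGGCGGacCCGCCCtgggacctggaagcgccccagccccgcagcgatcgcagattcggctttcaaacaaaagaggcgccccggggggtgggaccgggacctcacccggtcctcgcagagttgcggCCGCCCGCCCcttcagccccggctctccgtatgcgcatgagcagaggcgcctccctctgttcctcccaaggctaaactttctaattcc

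The windows of ITGA2 and LAMB1 held 4 GC boxes each, and each of the 3 windows that RefSeq gives for LAMB3, of which those of the most upstream and the most downstream start are shown, held 1. The LAMB3 window that is not shown overlaps that of the most upstream start. The same GC box lies in both and is counted for each. The AP-1 motif was found before the downstream start of LAMB3, at 67 bases from it, and not in the windows of ITGA2 and LAMB1. The window of LAMA3, which reached 2-fold on no day, held 2 matches to it. RefSeq promoters were matched for 26 of the 38 genes, with 33 windows, of which 17 held a GC box (51.5%, against 42.6% of all 35116 windows of the same length) and 2 held the AP-1 motif (6.06%, against 6.57%). The TATA box was in 2 of the 33 windows (6.06%, against 10.7%) and the RUNX core in 1 (3.03%, against 10.98% of all windows). Each of these shares is a description of letters, not of binding.

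To see how the whole group moved, each later day was set against day 0. On day 3, 8 of the 27 genes were 2-fold higher (7 of the 22 that had reached 1 FPKM on day 0), where 8.13% of the 12859 genes tested were. On day 6 the number was 10 (8 of the 22), against 9.01% of all genes, and on day 9 it was 9 (7 of the 22), against 9.60%. Of the 11956 genes with at least 1 FPKM on day 0, 6.46%, 7.13% and 7.47% were higher on days 3, 6 and 9, and 4.83% on all 3. No gene of the group was 2-fold lower on any day, while 5.30%, 6.42% and 6.52% of all genes were lower on days 3, 6 and 9. With 0.1 added in place of 1, ITGAE was 2-fold lower on each day, where 7.36%, 8.73% and 9.49% of all genes were. The median log2 ratio of the 27 genes was 0.63 on day 3, 0.76 on day 6 and 0.79 on day 9, beside -0.08, -0.08 and -0.09 over all genes tested. Since genes that are high only on the later days pass the minimum because of it, these medians are a description. Over the 37 genes above 0 in any library the medians were 0.40, 0.49 and 0.64. On all 3 days 7 genes were higher (ITGA2, ITGA7, ITGA11, ITGB4, LAMA1 and LAMB3, which are among the 22, and ITGA2B, which is not), where 5.93% of all genes were, and 0 were lower, where 3.45% of all genes were. Day 0 is a single library that enters each of these ratios, so the 3 days are not independent of each other.

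**Figure D1:**
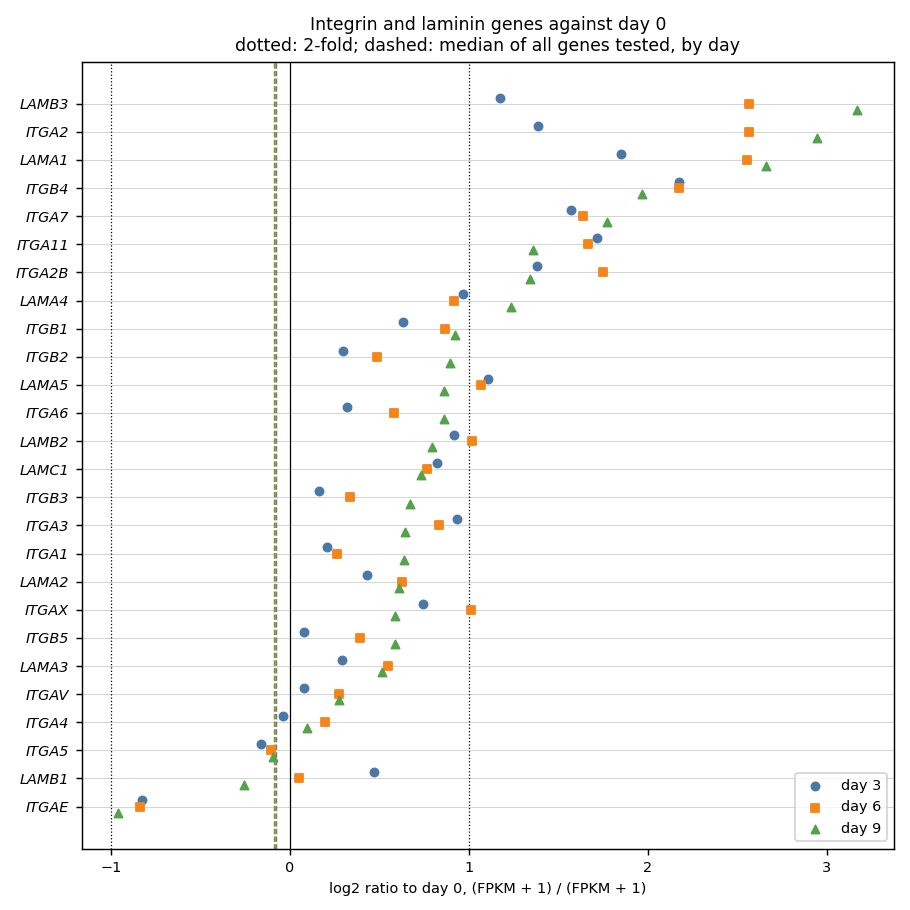
Log2 ratio to day 0 (horizontal axis) of 26 of the 27 integrin and laminin genes with at least 1 FPKM on any day, on days 3, 6 and 9 (symbols), with 1 library per day. Dotted lines mark 2-fold and dashed lines the median of all 12859 genes tested. LAMB3, ITGA2 and LAMA1 lie farthest to the right on day 9, and ITGAE lies farthest to the left, at -0.96.

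Among the integrin alpha chains, the collagen receptor ITGA2 had the largest ratio on day 9. This chain, which pairs with ITGB1 to bind collagen, had 1.196, 4.74, 12.0 and 15.9 FPKM, with log2 ratios to day 0 of 1.39, 2.57 and 2.94. Its level was higher in each later library than in the one before. ITGA11, a receptor of fibrillar collagen in fibroblasts and osteoblast-lineage cells, had 8.26, 29.4, 28.4 and 22.7 FPKM, so it was highest on day 3 (log2 ratio 1.72) and lower on day 9 (1.36). ITGA1, the third collagen receptor, had 7.05, 8.29, 8.67 and 11.5 FPKM and did not reach 2-fold (0.64 on day 9). The order of the collagen receptors therefore changed. On day 0 ITGA2 had 0.170 times the FPKM of ITGA1, and on days 6 and 9 it had 1.38 times. ITGA10, the chain of cartilage, stayed between 0.145 and 0.514 FPKM. Together these 4 chains made up 5.62% of all integrin alpha FPKM on day 0 and 11.9% on day 9.

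Among the laminin receptors, ITGA3 was abundant from the start and ITGA7 and ITGB4 were 2-fold higher on every later day. ITGA3 had 97.3, 187, 174 and 153 FPKM, just within the 2-fold limit on day 3 (log2 ratio 0.93). ITGA7, a laminin receptor best known from muscle, had 7.41, 23.97, 25.2 and 27.8 FPKM, with log2 ratios of 1.57, 1.64 and 1.77. ITGA6 had 14.6, 18.5, 22.4 and 27.4 FPKM and stayed under 2-fold (0.86 on day 9). The partner that ITGA6 has in epithelial hemidesmosomes, ITGB4, had 1.87 FPKM on day 0 and 12.0, 12.0 and 10.2 later, with log2 ratios of 2.18, 2.17 and 1.97. Thus ITGA7 and ITGB4 had most of their difference by day 3 and little after it, whereas ITGA6 was higher in each later library than in the one before. ITGB4 had 0.128 times the FPKM of ITGA6 on day 0, and 0.648, 0.533 and 0.374 times on days 3, 6 and 9.

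The fibronectin and RGD receptor chains ITGA5, ITGAV and ITGA4 had log2 ratios within 0.28 of 0 on every day. ITGA5, which pairs with ITGB1 as the main fibronectin receptor, had 100.3, 89.4, 93.1 and 93.9 FPKM. Its log2 ratios of -0.16, -0.11 and -0.09 were near the median of all genes, and those of days 6 and 9 changed sign when the libraries were rescaled (0.03 on both days). ITGAV, the chain of the receptors of vitronectin, osteopontin and latent TGF-beta, had 43.9, 46.4, 53.3 and 53.3 FPKM. ITGA4 had between 11.9 and 14.2 FPKM. The fibronectin and RGD type chains together had 157 FPKM on day 0 and 160 on day 9, and so went from 52.8% to 37.8% of integrin alpha FPKM, while the laminin-binding chains ITGA3, ITGA6 and ITGA7 went from 40.3% to 48.9%. On day 0 ITGA5 was the highest alpha chain, and ITGA3 had 0.971 times its FPKM. From day 3 ITGA3 was the highest, with 2.09, 1.87 and 1.62 times the FPKM of ITGA5.

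**Figure D2:**
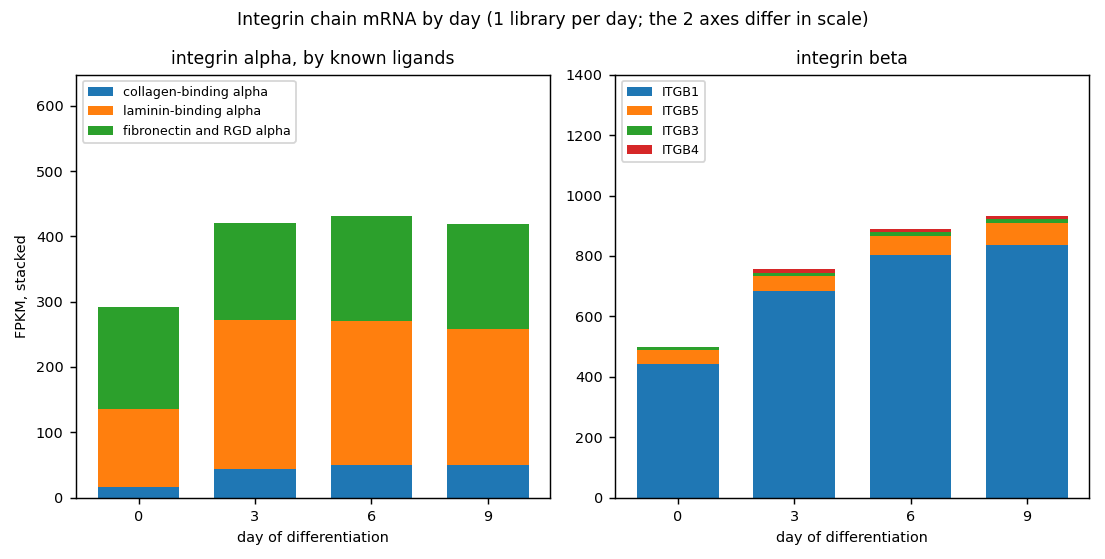
Stacked FPKM of integrin alpha chains by known ligands (left, without ITGA2B and the leukocyte chains) and of the beta chains ITGB1, ITGB5, ITGB3 and ITGB4 (right) on each day, 1 library per day, with both axes starting at 0. The laminin- and collagen-binding parts are larger after day 0, the fibronectin and RGD part lies between 148 and 161 FPKM, and ITGB1 makes up most of the beta chains.

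ITGB1, the beta chain that most of these alpha chains share, was the highest gene of the group in every library. It had 442, 685, 805 and 837 FPKM, and took between 88.1% and 90.2% of all integrin beta FPKM. Its log2 ratios of 0.63, 0.86 and 0.92 stayed under 2-fold, and with rescaled libraries that of day 9 was 1.05. Against the 12 alpha chains that pair with it, ITGB1 had 1.51 times their summed FPKM on day 0 and 2.0 times on day 9. ITGB5 had 47.2, 49.9, 62.3 and 71.3 FPKM, and ITGB3 had 9.07, 10.3, 11.7 and 15.0. These partners of ITGAV were higher in each later library, by at most 1.66-fold. ITGA2B, known as the platelet partner of ITGB3, had 0.875 FPKM on day 0 and 3.88, 5.31 and 3.75 later, with log2 ratios of 1.38, 1.75 and 1.34.

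Most leukocyte integrin chains were at or near 0. ITGAL, ITGAM and ITGB7 had at most 0.643 FPKM, and ITGAD was listed at 0 in every library. ITGAX had 0.233, 1.07, 1.48 and 0.853 FPKM and crossed the 2-fold limit on day 6 alone (log2 ratio 1.01). ITGB2 had 0.380, 0.691, 0.936 and 1.57 FPKM. ITGAE, the chain of intraepithelial lymphocytes, had 2.59 FPKM on day 0 and 1.02, 1.01 and 0.847 later, with log2 ratios of -0.83, -0.84 and -0.96. Of 10 leukocyte markers, 1 of them ITGAM itself, 4 reached 1 FPKM. The FPKM of the list summed to 22.2 on day 0 and 97.7 on day 9, mostly CD68, a lysosomal protein that other cells also express, with 16.2, 37.5, 65.1 and 90.6 FPKM. LAPTM5 had 0.441 FPKM on day 0 and between 1.74 and 2.62 later, CORO1A had between 3.14 and 4.11, and CD14 had 1.07 on day 0 and less later. The leukocyte marker PTPRC had at most 0.441 and the T cell marker CD3E was listed at 0. The part of such cells in the values of ITGAX and ITGB2 was not tested. ITGA8, ITGA9, ITGB6 and ITGB8 had at most 0.776 FPKM in every library.

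**Figure D3:**
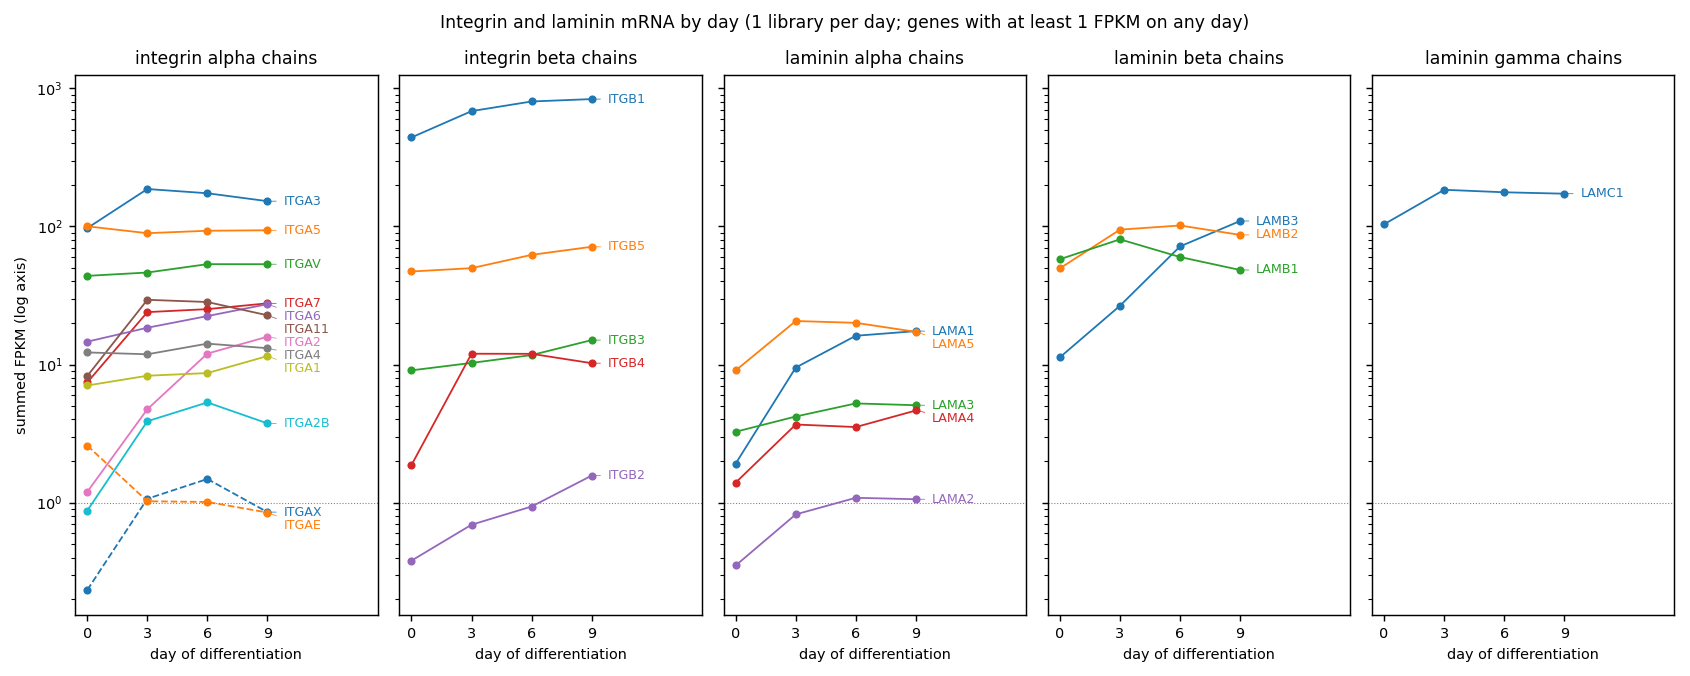
Summed FPKM (log axis) of 26 of the 27 genes that reached 1 FPKM (dotted line) on each day of differentiation, in a panel for each kind of chain, 1 library per day. ITGB1 lies above all others, and the lines of ITGA2, LAMA1 and LAMB3 climb from day 0 to day 9 through the levels of their neighbours.

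Among the laminin beta chains, the order was turned over. LAMB3 had 11.3, 26.6, 71.7 and 109.6 FPKM, with log2 ratios of 1.17, 2.57 and 3.17. LAMB2 had 49.8, 94.8, 102 and 86.9 FPKM and passed the 2-fold limit on day 6 only (1.02). LAMB1, the beta chain of most early laminins, had 57.9, 80.7, 60.1 and 48.4 FPKM, highest on day 3 (log2 ratio 0.47) and lowest on day 9 (-0.25). LAMB3 thus went from the lowest of these chains on day 0, with 9.47% of laminin beta FPKM, to the highest on day 9 with 44.7%, while LAMB1 went from 48.7% to 19.8%. LAMB4 was at most 0.0931 FPKM.

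LAMB3 is known from laminin trimers with LAMA3, which anchor epithelia through ITGA3 and through ITGA6 with ITGB4. LAMA3 had 3.26, 4.202, 5.23 and 5.07 FPKM and reached 2-fold on no day (log2 ratio 0.51 on day 9). On day 9 LAMB3 had 21.6 times the FPKM of LAMA3, against 3.46 times on day 0. Of 9 epithelial markers, 4 reached 1 FPKM, while CDH1 had at most 0.446 FPKM, EPCAM at most 0.788 and KRT5 at most 0.0607, and GRHL2 was listed at 0. KRT14 also stayed under 1 FPKM, with 0.103 on day 0 and 0.622, 0.550 and 0.797 later. The sum of the list was 914 FPKM on day 0 and between 369 and 481 later, nearly all of it KRT8 and KRT18. CLDN4 and KRT19, which also reached 1 FPKM, had at most 2.41 and 1.45.

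The alpha chains were the scarcest laminin mRNAs, with 15.98 FPKM in sum on day 0 and 45.5 on day 9, beside 119 and 245 for the beta chains and 105 and 176 for the gamma chains. LAMA1, the alpha chain of the embryonic basement membrane, had 1.92, 9.51, 16.2 and 17.5 FPKM, with log2 ratios of 1.85, 2.56 and 2.66. LAMA5, widespread in adult tissue, had 9.06, 20.7, 20.05 and 17.2 FPKM and was 2-fold higher on days 3 and 6 (1.11 and 1.06) but not on day 9 (0.86). LAMA1 had 0.212 times the FPKM of LAMA5 on day 0 and 1.01 times on day 9. LAMA4, found in vessels and mesenchyme, had 1.40, 3.68, 3.52 and 4.65 FPKM, with log2 ratios of 0.97 and 0.92 on days 3 and 6 and 1.24 on day 9, on both sides of the 2-fold limit. LAMA2, the chain of muscle, had at most 1.08 FPKM. LAMC1, which nearly all of these trimers contain, had 104, 184, 177 and 173 FPKM, under 2-fold on each day (0.82, 0.76 and 0.73), and made up at least 98.0% of gamma chain FPKM. LAMC3 had between 0.0984 and 0.963.

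**Figure D4:**
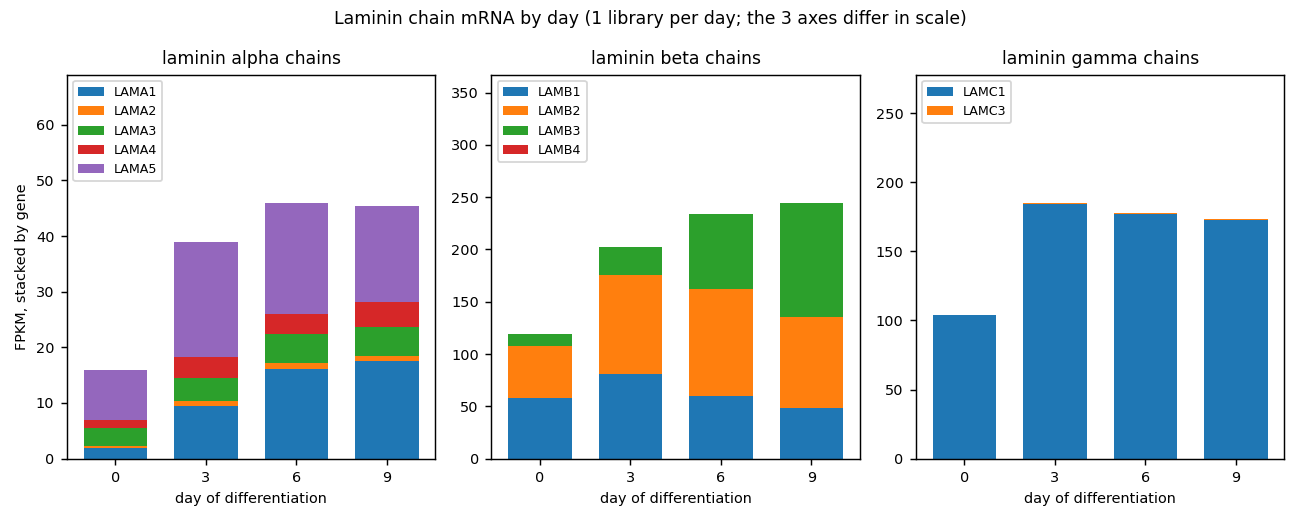
Stacked FPKM of the laminin alpha and beta chains and of LAMC1 and LAMC3 among the gamma chains (panels, with axes of different scale that start at 0) on each day, 1 library per day. LAMB3 grows from 9.47% to 44.7% of the beta chains and LAMA1 from 12.0% to 38.4% of the alpha chains, while LAMC1 makes up nearly all of the gamma chains on every day.

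To separate what followed the shift from what came later at the same temperature, day 9 was set against day 3. The 3 genes that were 2-fold higher on day 9 included LAMB3 (log2 ratio 2.0) and ITGA2 (1.56), and no member was 2-fold lower, where 1.39% of all genes were higher and 0.863% were lower. LAMA1 had 0.81. At the other end LAMB1 had -0.73, ITGA11 -0.36 and ITGA3 -0.29. The median of the 27 genes was 0.20 and that of all genes 0.00. In single transcripts, the 4 of LAMB3 with most FPKM had log2 ratios of day 9 to day 0 between 2.57 and 3.37, so its difference was not carried by 1 of them. In ITGB4 the shares of the transcripts differed between days: ENST00000200181 held 57.9% of its FPKM on day 0 and 6.06% on day 9. The level of this transcript was 1.08, 1.84, 0.866 and 0.620 FPKM on days 0, 3, 6 and 9. ENST00000579662 had 0.356 FPKM on day 0 and 4.73 on day 9. For ITGA7, ENST00000553804 went from 39.1% to 61.6% of the gene, with 2.90 FPKM on day 0 and 17.1 on day 9. ITGA2, ITGA1 and LAMA1 each have a single transcript in the table. The share that such a table gives to overlapping transcripts is an estimate, and its error is not known here.

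The partners of laminin in the basement membrane were followed with a list of 12 genes, of which 10 reached 1 FPKM. On day 3, 5 of the 10 were 2-fold higher than on day 0, where 8.13% of all genes were, with a median log2 ratio of 1.09. On day 9 the number was 4, where 9.60% of all genes were higher, with a median of 0.66. On days 3 and 9, 0 were lower, where 5.30% and 6.52% of all genes were. HSPG2, which encodes perlecan, had 50.8, 120, 124 and 127 FPKM (log2 ratios 1.22, 1.27 and 1.31). The type IV collagen chains COL4A5 and COL4A6 had log2 ratios of 1.62 and 1.77 on day 9, down from 2.41 and 2.38 on day 3, and COL4A4 had 1.02. The major chains did not reach 2-fold on any day. COL4A1 had 288, 467, 425 and 297 FPKM (log2 ratios 0.70, 0.56 and 0.04), and COL4A2 had 384, 567, 580 and 403 (0.56, 0.59 and 0.07), so both were highest on day 3 or 6 and near day 0 on day 9.

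Of the 8 genes of other laminin receptors and their partners, SDC1 alone was 2-fold higher on day 9 and DAG1 alone lower. Of all genes, 9.60% were higher and 6.52% lower, and the median log2 ratio of the 8 was -0.06. SDC1, a heparan sulfate proteoglycan, had 19.3 FPKM on day 0 and between 100.01 and 109 later. DAG1, which encodes dystroglycan, had 53.8 FPKM on day 0 and 26.1, 24.02 and 23.3 later (log2 ratios -1.02, -1.13 and -1.17), and the ratio of day 3 was -0.89 with rescaled libraries. RPSA, the ribosomal protein also known as a laminin receptor and the most abundant gene of the list, had 779, 546, 591 and 584 FPKM.

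Among 22 genes of other integrin ligands, 18 reached 1 FPKM, with a median of 0.64 on day 9. Of the 18, 7 were 2-fold higher and 2 lower on day 9, where 9.60% and 6.52% of all genes were. SPP1 and VCAM1, among the 7, were under 1 FPKM on day 0 and so passed the minimum only through the later libraries. FN1, fibronectin, had 831, 1920, 2014 and 2053 FPKM (log2 ratios 1.21, 1.28 and 1.30), next to the nearly level ITGA5. MFGE8, a ligand of ITGAV integrins, had 81.2, 264, 316 and 389 FPKM. SPP1, osteopontin, had 0.794, 1.89, 5.14 and 7.45. ICAM1 and VCAM1, ligands of leukocyte integrins, had log2 ratios of 2.58 and 1.453 on day 9. TNC, tenascin C, had 65.8 FPKM on day 0 and 34.3, 23.0 and 18.5 later, and TNXB had a log2 ratio of -1.22 on day 9.

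The genes inside the cell that link integrins to actin had median log2 ratios of -0.20, -0.21 and -0.16 on days 3, 6 and 9. Over all genes tested the medians were -0.08, -0.08 and -0.09. Of 38 listed, 35 reached 1 FPKM. On day 6, 2 of the 35 were 2-fold higher and 5 lower, where 9.01% and 6.42% of all genes were. On day 9 TLN2 was 2-fold higher and 4 genes were lower, where 9.60% and 6.52% of all genes were. The 4 were PARVB (-1.61), RSU1 (-1.46), TGFB1I1 (-1.33) and FERMT2 (-1.04), which encode beta-parvin, a partner of the ILK complex, Hic-5 and kindlin-2. With rescaled libraries FERMT2 had -0.92, within the limit. TLN2 had 6.58, 13.8, 15.9 and 19.0 FPKM and encodes a talin, which binds the tails of the beta chains. FLNA, filamin A, which had the highest mean of the list over the 4 libraries though not the highest level on days 3, 6 and 9, had 429, 288, 290 and 295 FPKM.

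**Figure D5:**
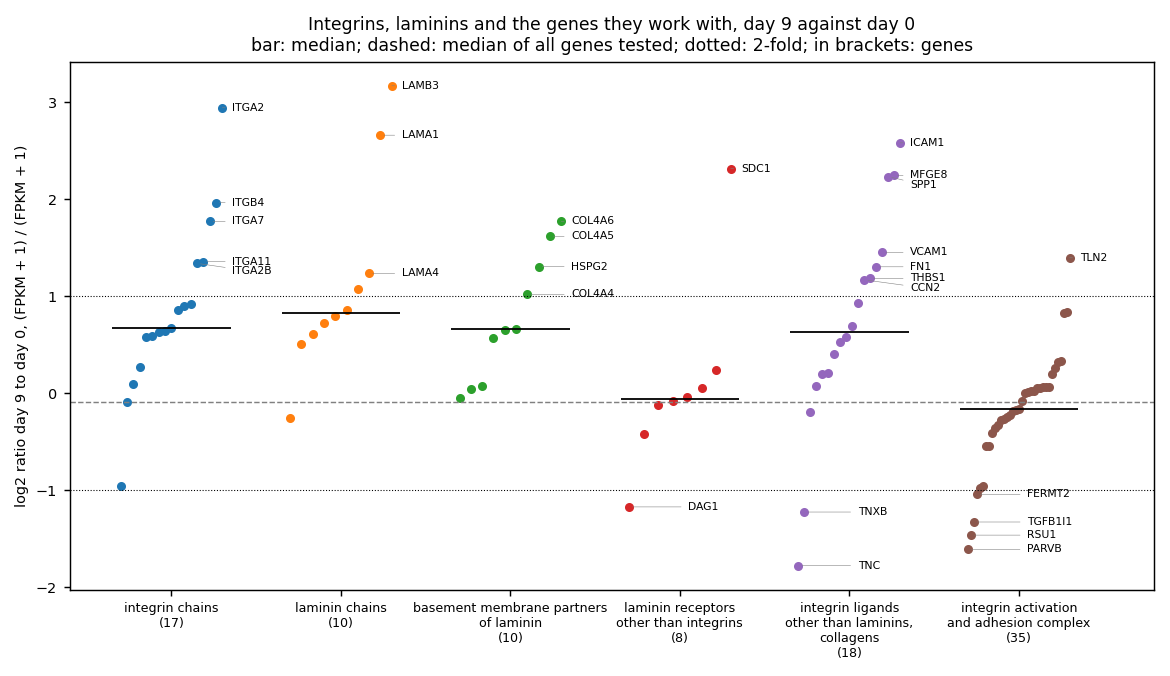
Log2 ratio of day 9 to day 0 (vertical axis) of each gene with at least 1 FPKM in the integrin and laminin chains and in 4 lists of related genes, with 1 library per day and bars at the medians. The integrin, laminin, basement membrane and ligand groups have medians between 0.64 and 0.83, while those of the other receptors and of the adhesion complex are -0.06 and -0.16, near the -0.09 of all genes.

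Markers of other cells that express some of these chains were low or mixed. Of 7 endothelial markers 4 reached 1 FPKM, with a summed level between 24.6 and 34.9, most of it from TEK, with 9.97 to 16.6 FPKM, and EGFL7, with 13.4 to 16.6. CLDN5 had 0.563 FPKM on day 0 and passed the 2-fold limit on day 6 (log2 ratio 1.04), and also on day 3 with rescaled libraries (1.05). KDR had 0.227 FPKM on day 0 and at most 1.07 later. PECAM1, CDH5 and VWF had at most 0.262 FPKM. Of 6 muscle markers 2 reached 1 FPKM, with a summed level between 67.4 and 220, while MYOD1, MYOG, DES and MYH11 stayed under 1 FPKM. CNN1 had 46.3, 50.6, 42.0 and 50.1 FPKM. ACTA2, smooth muscle actin, which myofibroblasts also express, had 20.4 FPKM on day 0 and between 163 and 168 later. The part of ACTA2-expressing cells in the differences of ITGA7 and ITGA11 was not tested. In whole cultures, fewer cells of a kind and less RNA per cell cannot be told apart.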

How the data were processed

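Total RNA of hFOB1.19 cells on days 0, 3, 6 and 9 was depleted of ribosomal RNA and made into directional libraries, 1 per day. The labels describe RNase R, an enzyme that digests linear RNA, as a step of the mRNA preparation, and its part in these values was not tested. Reads were aligned with TopHat to a Bowtie index. The labels name Bowtie 0.12.2 and mm8, a mouse build, for these human cells, and the deposited IDs are those of human Ensembl genes, so no coordinates were taken from the files. The program behind the FPKM and its strand setting are not given in the sources used here. The authors deposited FPKM for 79798 transcripts. They also deposited 9 tables of their own comparisons (fold changes, p-values, q-values), circRNA counts and lncRNA FPKM, which were not used here.

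FPKM were summed per symbol (17 symbols cover more than 1 gene ID, none of them an integrin or laminin), and log2 ratios were taken after 1 was added, among genes with at least 1 FPKM in any library. The limit was 2-fold. The program named for differential expression in the methods needs counts, so no test was made. The script that applies the limit was tested on simulated data. The genes and lists were chosen with earlier results of these data known. All members with at least 1 FPKM are named, except 1 that is counted but not reported here. In the other lists, genes past 2-fold on day 9 are named, at most 4 each way, with the gene or genes of highest mean FPKM beside them. Alternatives were 0.1 added, no minimum or 5 FPKM, median-of-ratios rescaling, a 1.5-fold limit, the most abundant transcript, and, chosen after the data were seen, a mean of at least 1 FPKM. Python 3.11.15, numpy 2.4.6, pandas 2.3.3 and matplotlib 3.10.9 were used.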

Additional observations from a re-analysis of the deposited data

How the results depend on the processing

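No paired analysis was possible because each day has 1 library. Of 70 numbers of integrin and laminin genes past the limit under the alternatives, 57 stayed within 1.5 times the value reported, and no ratio past the limit changed sign. With 0.1 added in place of 1, 1 gene, ITGAE, was lower than day 0 on each of the 3 days, where the report has 0. Of all genes, 7.36%, 8.73% and 9.49% were lower on days 3, 6 and 9 with this setting, and 4.77% on all 3. With a limit of 1.5-fold, wider by construction, 14 genes were higher on day 3, 20 on day 9 and 14 on all 3 days. Of all genes, 17.4%, 18.1% and 12.6% were. On day 9 against day 3, 5 were higher, where 4.92% of all genes were. In each comparison 1 gene was lower (ITGAE against day 0, LAMB1 on day 9 against day 3). Of all genes, 18.5%, 20.1% and 20.4% were lower on days 3, 6 and 9, and 13.2% on all 3 days. On day 9 against day 3, 5.00% of all genes were lower. Rescaling by median-of-ratios factors moved the median of all genes by 0.12 on days 3 and 6 and by 0.11 on day 9. It kept every gene counted as higher and added ITGA3, LAMA4 and LAMB2 on day 3, LAMA4 on day 6 and ITGB1 on day 9. Of all genes, 9.72%, 10.6% and 11.0% were higher on days 3, 6 and 9 with this setting, against 8.13%, 9.01% and 9.60% without it. With the most abundant transcript alone, LAMB3 on day 3 had 0.995 and LAMA4 on day 9 had 0.997, both under the limit, ITGAX was no longer counted, and ITGA6 passed the limit on day 9. Of all genes, 9.00%, 9.71% and 10.4% were higher on days 3, 6 and 9 in this case. With a mean of at least 1 FPKM, which was added with the data in view, 24 genes were kept in place of 27. Of these, 8, 9 and 9 were higher on days 3, 6 and 9, where 8.23%, 9.20% and 9.72% of all genes were. FPKM hold no read counts, so counting error limits genes under a few FPKM by an unknown amount. The cause of the other changes was not tested.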
